A study of Homo sapiens with 7 samples.

Results

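Antisense RNAs are long non-coding transcripts made from the strand opposite a named gene, and by convention their symbols carry the name of that gene followed by -AS and a number. In the RNA-seq table of 501Mel melanoma cells, 695 of 21305 genes had such a symbol, and 246 of these had a mean normalized count of at least 30 over the 7 libraries. These 246 antisense RNAs are described here. RNF144A-AS1, the transcript that was knocked down, is listed under its other name GRASLND and is not among them. The members were chosen by their mean level over these libraries, which is therefore given as a description. Just inside the minimum were NUP153-AS1 (mean normalized count 30.2), UFD1-AS1 (30.6) and PPP1R26-AS1 (30.6), and just outside it were IRF1-AS1 (29.5), ADGRL1-AS1 (29.4) and RASAL2-AS1 (29.4).

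Antisense transcripts can act on the gene they face, for example when their transcription interferes with it, when they recruit chromatin modifiers to its promoter or when they pair with its RNA. Others act far from their own locus as scaffolds or as sponges for microRNAs, and for many no function is known. They are usually less abundant than protein-coding mRNAs and differ strongly between cell types.

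501Mel is a human melanoma line that keeps a melanocytic gene programme. All cells carried a doxycycline-inducible short hairpin delivered by a lentiviral vector and selected with puromycin, and all groups received doxycycline. The control hairpin was directed against the bacterial gene lacZ (shlacZ, n = 3), and 2 hairpins, sh4 (n = 2) and sh8 (n = 2), were directed against GRASLND. The labels do not say whether the libraries of a group came from separate cultures, so p-values measure the spread between these libraries, which may be technical. The reads counted over the genes listed summed to 13337317 to 22855232 per library, which is not the number sequenced. GRASLND was at 309, 330 and 290 normalized counts in the shlacZ libraries, 175 and 131 under sh4, and 227 and 163 under sh8. With the hairpins pooled, its log2 fold change was -0.85 (SE 0.19, adjusted p = 0.0402). It was -1.02 (SE 0.21, adjusted p = 0.00662) with sh4 and -0.68 (SE 0.21, adjusted p = 0.11) with sh8, which did not pass, and the difference between the hairpins was -0.34 (SE 0.22, adjusted p = 0.421). The 7 melanocytic markers were all detected, and their summed normalized count was 135575 to 146343 in the control, 51868 to 59737 under sh4 and 101544 to 104484 under sh8. Among the markers of other cell types that were in the table, COL1A1 (fibroblast) was at most 16.4 and CDH1 (epithelial) at most 16.5, while CD68, which melanoma cells can also express, was at 441 to 675.

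The first shlacZ library stood apart from the other control libraries. Per gene, the mean chi-square of its reads was 31.9 and 31.03 against these libraries, compared with 9.52 between the second and the third. Between the libraries of a hairpin it was 21.2 for sh4 and 18.1 for sh8. The antisense RNAs together took 0.376% of the normalized counts of that library, compared with 0.267% and 0.285% in the other shlacZ libraries, 0.321% and 0.275% under sh4, and 0.330% and 0.309% under sh8. Where leaving it out ended a call or moved a count or fold by over 1.5 times, the value without it is given. For some named members that passed only without it, that value is given as well.

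Normalized counts are the reads of a gene divided by 1 size factor per library, so they compare libraries but not genes of different length. Mean normalized counts of the 246 members ran from 30.2 to 4653 with a median of 85.4, and 110 members reached 100 while 9 reached 1000. The 6 members with the highest means (LHFPL3-AS1, OIP5-AS1, FGD5-AS1, NUTM2A-AS1, NUTM2B-AS1 and PSMA3-AS1) held 28.9% of the normalized counts of all members. The lowest single value was 4 reads and the highest 6998 reads in a library. Per kilobase of exon, LHFPL3-AS1 led with 1531 normalized counts per kb, followed by FGD5-AS1 (383), PSMA3-AS1 (236) and SUGCT-AS1 (233). In the annotation, 244 members were typed as lncRNA, and TP73-AS1 and SRP54-AS1 as transcribed unitary pseudogenes.

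The start regions of 4 members that the results turn on are printed for reference, as 250 bases before and 50 after the start in RefSeq on GRCh38.p14. PLCH1-AS1 (chr3:155448934-155449233 on the plus strand) was lower with both hairpins. LURAP1L-AS1 (chr9:12814340-12814639 on the minus strand) and LHFPL3-AS1 (chr7:104804043-104804342 on the minus strand) were lower with sh4, and SPRY4-AS1 (chr5:142325043-142325342 on the plus strand) was higher with sh4. Capitals mark CATGTG, or its complement CACATG, an E-box that MITF, the master transcription factor of melanocytes, can bind.
PLCH1-AS1: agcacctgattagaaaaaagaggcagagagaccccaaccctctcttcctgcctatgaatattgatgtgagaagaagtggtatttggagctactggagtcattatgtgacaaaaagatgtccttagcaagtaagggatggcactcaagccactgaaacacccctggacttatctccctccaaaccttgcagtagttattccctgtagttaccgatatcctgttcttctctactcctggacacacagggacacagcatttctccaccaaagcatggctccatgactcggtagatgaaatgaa
LURAP1L-AS1: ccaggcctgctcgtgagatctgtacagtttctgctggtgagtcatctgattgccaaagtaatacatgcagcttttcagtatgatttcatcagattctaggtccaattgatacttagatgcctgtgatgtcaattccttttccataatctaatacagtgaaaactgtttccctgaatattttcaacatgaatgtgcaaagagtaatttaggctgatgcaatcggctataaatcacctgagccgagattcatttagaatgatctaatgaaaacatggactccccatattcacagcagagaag
LHFPL3-AS1: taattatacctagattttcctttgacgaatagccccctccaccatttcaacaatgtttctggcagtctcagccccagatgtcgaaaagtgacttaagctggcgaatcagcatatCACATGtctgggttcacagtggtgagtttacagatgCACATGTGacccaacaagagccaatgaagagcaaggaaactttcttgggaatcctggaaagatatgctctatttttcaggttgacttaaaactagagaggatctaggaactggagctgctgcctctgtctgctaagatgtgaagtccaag
SPRY4-AS1: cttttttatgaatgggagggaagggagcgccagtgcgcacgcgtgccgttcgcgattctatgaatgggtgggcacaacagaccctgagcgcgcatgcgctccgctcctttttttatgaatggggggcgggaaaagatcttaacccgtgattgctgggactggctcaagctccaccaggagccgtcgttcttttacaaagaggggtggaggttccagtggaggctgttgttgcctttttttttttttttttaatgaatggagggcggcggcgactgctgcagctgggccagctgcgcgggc

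The LHFPL3-AS1 window held 3 such matches, of which 2 overlap, and the other 3 windows held 0. The palindromic E-box CACGTG was found in 0 of these 4 windows. RefSeq promoters were at hand for 193 of the 246 members, which gave 229 windows. CATGTG on either strand occurred in 17 of the 229 (7.42%) and in 11.1% of all 34943 promoter windows, and CACGTG occurred in 17 of the 229 (7.42%) and in 7.23% of all windows. These are matches of letters, and binding was not measured.

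To see which antisense RNAs responded to GRASLND knockdown, all 4 knockdown libraries were compared with the 3 control libraries by limma over the 15420 genes whose mean reached 10. The threshold for a call was an absolute log2 fold change over 1 together with an adjusted p (Benjamini-Hochberg) under 0.05. PLCH1-AS1 was called lower, and SPRY4-AS1 and PDC-AS1 were called higher. These 3 calls were 1.22% of the members, beside 1.99% of all genes tested (1.3% higher and 0.694% lower). By adjusted p alone, 4 members passed (1.63%, against 4.61% of all genes). Without the first shlacZ library 7 members were called, without the first sh8 library 6, and without the second or the third control library or either sh4 library 1, PLCH1-AS1. In 38 members (15.4%) the knockdown libraries did not overlap the control libraries, 25 of them higher and 13 lower, beside 21.2% of all genes.

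PLCH1-AS1 lies on the plus strand of chr3:155449184-155457753 (hg38), within the gene body of PLCH1, which encodes phospholipase C eta 1, without sharing an exon with it. Its normalized count was 591, 415 and 320.1 in the shlacZ libraries, 56.5 and 22.4 under sh4, and 52.7 and 37.3 under sh8. All knockdown libraries lay far below all control libraries. Means were 442 ± 138 (SD, n = 3) for shlacZ and 42.2 ± 15.6 (SD, n = 4) for knockdown. The log2 fold change was -3.40 (SE 0.33, adjusted p = 0.00221) for both hairpins, -3.55 (SE 0.39, adjusted p = 0.00033) for sh4 and -3.24 (SE 0.39, adjusted p = 0.00308) for sh8. It was called under each of the 17 alternatives with both hairpins and with sh4, and under 15 of 17 with sh8, where fitting no variance trend or leaving out the second sh8 library ended the call (adjusted p = 0.0543 at most). In RNA from a whole culture, fewer cells with a transcript and less of it per cell cannot be told apart.

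PLCH1 was not called with either hairpin. Its normalized count was 72.2, 50.3 and 51.3 in the shlacZ libraries, 76.8 and 71.6 under sh4, and 15.8 and 28.2 under sh8. The log2 fold change of PLCH1 was 0.37 (adjusted p = 0.453) for sh4 and -1.39 (adjusted p = 0.054) for sh8, and it was 1.76 higher under sh4 than under sh8 (adjusted p = 0.0175). The log2 ratio of antisense RNA to PLCH1 was 3.02, 3.02 and 2.62 in the control, -0.44 and -1.64 under sh4, and 1.68 and 0.39 under sh8. The ratio was lower in every knockdown library than in every control library.

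SPRY4-AS1 lies on the plus strand of chr5:142325209-142672001 (hg38), opposite SPRY4, a feedback inhibitor of receptor tyrosine kinase signalling to MAP kinase. Its normalized count was 42.3, 19.9 and 32.2 in the shlacZ libraries, 119 and 137 under sh4, and 65.9 and 60.98 under sh8. Every knockdown library was above every control library, and the sh4 libraries were the highest. The log2 fold change was 1.55 (SE 0.36, adjusted p = 0.0432) for both hairpins and 2.04 (SE 0.33, adjusted p = 0.00225) for sh4. For sh8 it was 1.05 (SE 0.33, adjusted p = 0.122), which did not pass. Without the first shlacZ library it was 1.29 with sh8 (adjusted p = 0.0252), past both thresholds. The call with sh4 held in all 17 alternatives, whereas that with both hairpins held in 10 and was lost without the second shlacZ library, the third or either sh4 library (adjusted p = 0.0923 to 0.188).

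SPRY4 was at 1192, 1484 and 2547 in the shlacZ libraries, 3844 and 4098 under sh4, and 2545 and 4185 under sh8. It was called as well, at 1.12 (adjusted p = 0.0398) for both hairpins. The antisense gene also runs past FGF1, a growth factor on the opposite strand, whose normalized count was 1.03, 2.09 and 7.83 in the shlacZ libraries, 39.5 and 56.7 under sh4, and 10.5 and 19.1 under sh8. FGF1 was called higher with sh4, at a log2 fold change of 3.66 (SE 0.65, adjusted p = 0.00371). FGF1 was under 10 in every control library, so it reached the minimum mean for testing only through the knockdown libraries. Such a minimum favours a higher call at this level. No exon of SPRY4-AS1 overlaps an exon of either gene in the annotation.

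PDC-AS1, named after the photoreceptor protein phosducin, was at 19.6, 20.9 and 20.01 in the shlacZ libraries, 48.6 and 39.6 under sh4, and 54.04 and 46.4 under sh8. The control libraries were close together and below all knockdown libraries. With a control mean under 30, PDC-AS1 passed the minimum for members only through the libraries in which it is high, so it had to differ. The log2 fold change was 1.18 (SE 0.26, adjusted p = 0.0346) for both hairpins, 1.08 (SE 0.30, adjusted p = 0.0274) for sh4 and 1.27 (SE 0.30, adjusted p = 0.0552) for sh8. Without the first shlacZ library it was 1.25 with sh8 (adjusted p = 0.0351), past both thresholds. The call with both hairpins held in 8 of 17 alternatives and, of the 7 libraries left out in turn, was kept only without the first sh8 library (adjusted p = 0.0518 to 0.136 without the others).

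With sh4 alone, 23 antisense RNAs were called (9.35%, against 8.16% of all genes), 16 higher and 7 lower, where 4.79% of all genes were called higher and 3.37% lower. By adjusted p alone, 41 members passed (16.7%, against 22.5% of all genes), 27 of them higher and 14 lower. With sh8 alone, PLCH1-AS1 was the 1 call (0.407%), beside 1.15% of all genes (0.649% higher and 0.506% lower) and 2.92% by adjusted p alone. No member was called higher with sh8 by limma, nor by limma-voom on recovered reads, while 16 were higher and 9 lower at an unadjusted p under 0.05. Without the first shlacZ library 36 members were called with sh4 and 6 with sh8. Without the second or the third control library 14 were called with sh4, without either sh4 library 9, and without the second sh8 library 0 were called with sh8. Both comparisons share the shlacZ libraries.

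**Figure D1:**
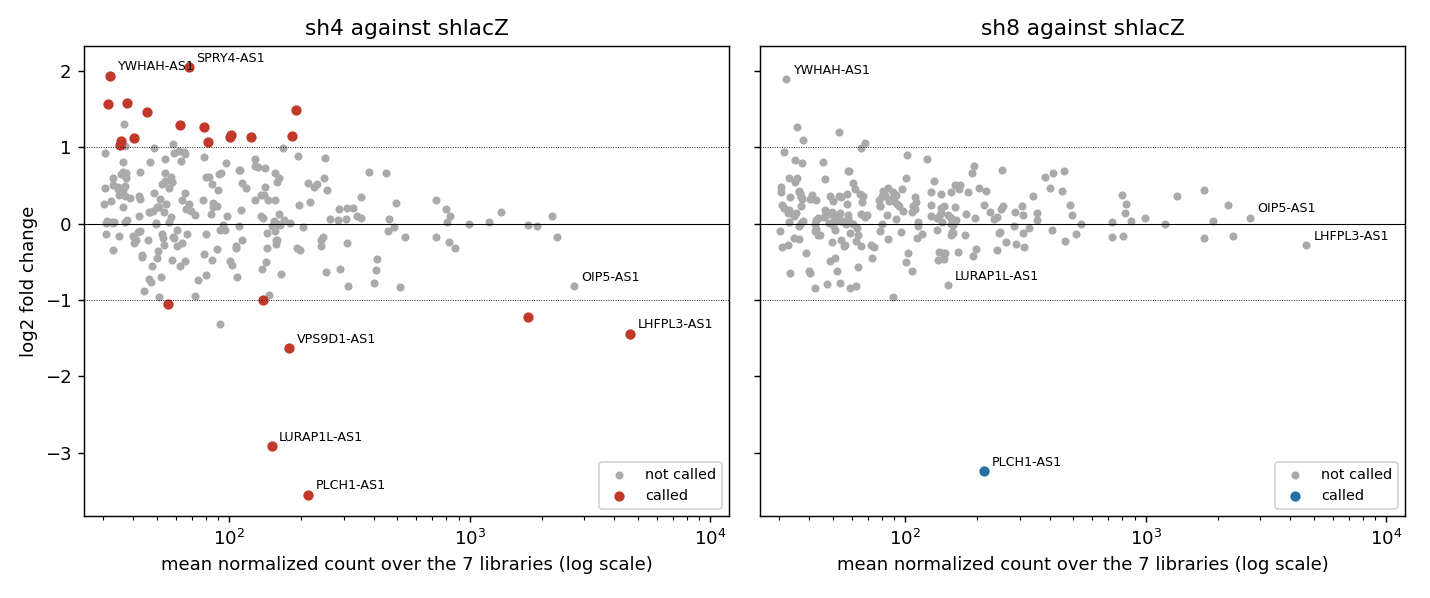
Log2 fold change of the 246 antisense RNAs (vertical axis) against the mean normalized count over the 7 libraries (horizontal axis, log scale), for sh4 on the left and sh8 on the right. Each point is 1 antisense RNA, coloured points passed the call, and dotted lines mark log2 fold changes of -1 and 1. The sh4 panel shows 16 calls above and 7 below 0, and the sh8 panel shows PLCH1-AS1 alone.

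The antisense RNAs called lower with sh4 included some with high counts, their means running from 55.9 to 4653 and a median of 178. Those called higher were all between a mean of 31.5 and 189.7, with a median of 65.3, and 7 of the 16 (YWHAH-AS1, CHL1-AS2, ST7-AS1, PPM1F-AS1, SLC38A4-AS1, PDC-AS1 and BAZ2B-AS1) had a control mean under 30. These 7 passed the minimum through the knockdown libraries, so at this level the choice of members favours higher calls. The plot of log2 fold change against level shows this split. In 5 of the 7 lower calls (all but KRT10-AS1 and PHKA2-AS1), and in 1 of the 16 higher calls (SPRY4-AS1), the call held under all 17 alternatives.

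LURAP1L-AS1 lies on the minus strand of chr9:12698554-12814377 (hg38). Its normalized count was 287, 221 and 212 in the shlacZ libraries, 40.7 and 23.1 under sh4, and 137 and 135 under sh8, and the 3 groups did not overlap. The log2 fold change was -2.91 (SE 0.27, adjusted p = 0.000135) for sh4 and -0.80 (SE 0.27, adjusted p = 0.144) for sh8, and the direct comparison of sh4 with sh8 gave -2.11 (SE 0.29, adjusted p = 0.0036). LURAP1L, a leucine-rich adaptor gene, was at 23.7, 17.8 and 20.9 in the shlacZ libraries, 53.1 and 55.2 under sh4, and 19.8 and 70.99 under sh8, and its log2 fold change with sh4 was 1.35 (adjusted p = 0.0676).

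The annotated LURAP1L-AS1 gene also runs across TYRP1, a melanosomal enzyme of pigment synthesis on the opposite strand, with 102 bases of shared exon. TYRP1 was at 36836, 52194 and 45912 in the shlacZ libraries, 10416 and 11194 under sh4, and 32891 and 29980 under sh8. Its log2 fold change was -2.04 (SE 0.16, adjusted p = 8e-05) with sh4 and -0.50 (SE 0.16, adjusted p = 0.122) with sh8, and -1.54 (SE 0.17, adjusted p = 0.00182) for sh4 against sh8. Both transcripts were therefore lowest under sh4. The library kit keeps the strand, but the sources used here do not say whether counting used it, so reads in shared exon cannot be told apart between such partners in this and in the other overlapping pairs.

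LHFPL3-AS1, the antisense RNA with the highest level both by normalized count and per kb, lies on the minus strand of chr7:104738597-104804107 (hg38), and was at 7222, 5168 and 5800 in the shlacZ libraries, 2752 and 1776 under sh4, and 4848 and 5004 under sh8. Both sh4 libraries were below all others. The log2 fold change was -1.44 (SE 0.19, adjusted p = 0.000932) with sh4 and -0.29 (SE 0.19, adjusted p = 0.47) with sh8. LHFPL3 was looked up and not found by symbol.

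VPS9D1-AS1, on the plus strand of chr16:89711856-89718165 (hg38), was at 219.8, 245 and 223 in the shlacZ libraries, 73.4 and 73.1 under sh4, and 223 and 191 under sh8. Under sh4 its log2 fold change was -1.63 (SE 0.18, adjusted p = 0.000337), while under sh8 it was -0.15 (SE 0.18, adjusted p = 0.7). VPS9D1, which encodes a protein with a VPS9 domain, moved the other way, at 49.5, 29.3 and 32.2 in the shlacZ libraries, 111 and 93.3 under sh4, and 26.4 and 47.3 under sh8, with 1.47 (adjusted p = 0.0141) under sh4. The log2 ratio of antisense RNA to VPS9D1 was 2.13, 3.02 and 2.75 in the control, -0.59 and -0.35 under sh4, and 3.03 and 1.99 under sh8. The 2 genes share 518 bases of exon.

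PYDC2-AS1, KRT10-AS1 and PHKA2-AS1 were the other lower calls with sh4, named here after their values were seen. PYDC2-AS1 was at 2826, 1885 and 1897 in the shlacZ libraries, 1020 and 834 under sh4, and 1990 and 1799 under sh8, a log2 fold change of -1.23 (SE 0.18, adjusted p = 0.00166) with sh4. In the annotation it lies on the same strand as PYDC2, a gene for a pyrin domain protein, which was at 49.5, 39.8 and 16.5 in the shlacZ libraries, 11.3 and 9.70 under sh4, and 35.6 and 29.1 under sh8. KRT10-AS1 was at 155, 187 and 184 in the shlacZ libraries, 77.9 and 96.3 under sh4, and 133 and 137 under sh8, only just past the fold that a call needs (adjusted p = 0.00649 with sh4). The call was lost without the second control library, the third or the first sh4 library. PHKA2-AS1 had a log2 fold change of -1.05 (SE 0.29, adjusted p = 0.0286). This call was lost without any 1 of the control libraries or either sh4 library (adjusted p up to 0.198), and without the first shlacZ library the log2 fold change was -0.95 (adjusted p = 0.041). The summed melanocytic markers were lowest under sh4 too, as were MITF (11635 to 12619, against 17326 to 22076 in the control) and DCT (892.6 to 1704, against 9970 to 16036), whereas TYR was not (9183 to 10288, against 8192 to 9420). The part of the melanocytic programme in these calls was not tested.

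**Figure D2:**
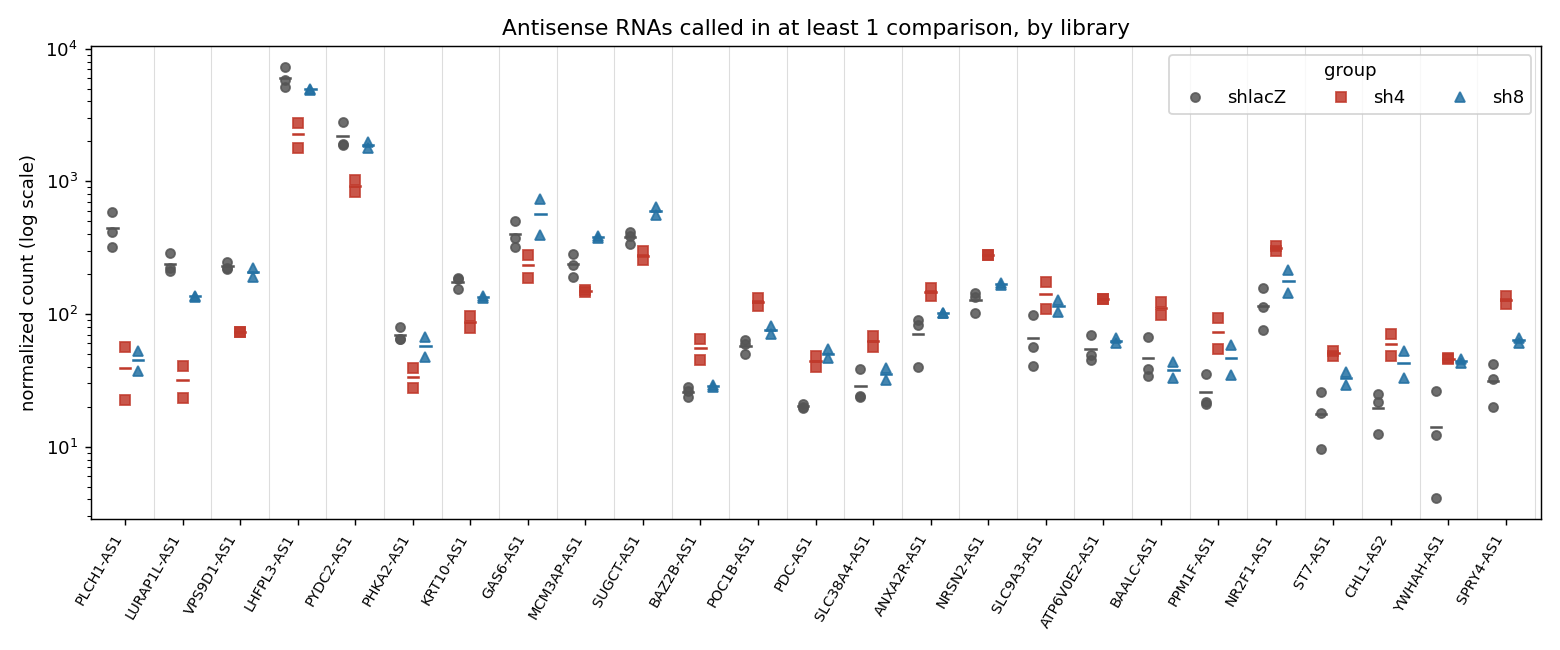
Normalized count (vertical axis, log scale) of 25 antisense RNAs called in at least 1 comparison, in each of the 7 libraries. Circles are shlacZ (n = 3), squares sh4 (n = 2) and triangles sh8 (n = 2), short lines are group means, and members are ordered by their log2 fold change with sh4. PLCH1-AS1 at the left end lies low with both hairpins, while LURAP1L-AS1, VPS9D1-AS1, LHFPL3-AS1 and PYDC2-AS1 lie low under sh4 with sh8 closer to the control.

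Among the higher calls with sh4, YWHAH-AS1, CHL1-AS2, ST7-AS1 and NR2F1-AS1 followed SPRY4-AS1 in size. YWHAH-AS1, CHL1-AS2 and ST7-AS1 had control means under 30 and passed the minimum for members only through the knockdown libraries. They therefore had to be higher there, and their separation from the control is a description. YWHAH-AS1, which faces the gene of the adaptor protein 14-3-3 eta, was at 4.13, 26.2 and 12.2 in the shlacZ libraries, 46.3 and 45.5 under sh4, and 46.1 and 42.8 under sh8. Its values were alike under both hairpins and above all control libraries, with log2 fold changes of 1.94 (SE 0.59, adjusted p = 0.0399) for sh4, 1.89 (SE 0.59, adjusted p = 0.122) for sh8 and 1.91 (SE 0.49, adjusted p = 0.0547) for both, the last 2 not passing. The lowest control value was 4 reads in the first shlacZ library, and without that library the log2 fold changes were 1.31 (adjusted p = 0.0274) for sh4, 1.26 (adjusted p = 0.0655) for sh8 and 1.29 (adjusted p = 0.0641) for both. The call with sh4 was kept in 9 of 17 alternatives and was lost without the third shlacZ library or any 1 of the sh4 and sh8 libraries. YWHAH was at 2169, 3575 and 3847 in the shlacZ libraries, 5192 and 7054 under sh4, and 6170 and 6994 under sh8, with 1.02 (adjusted p = 0.0265) for both hairpins.

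CHL1-AS2 was at 24.8, 12.6 and 21.7 in the shlacZ libraries, 71.1 and 48.5 under sh4, and 32.95 and 52.8 under sh8, and its log2 fold change with sh4 was 1.58 (SE 0.39, adjusted p = 0.0177). CHL1, a cell adhesion molecule of the L1 family, was at 526 normalized counts per kb of exon on average, against 9.77 for CHL1-AS2. Its normalized count was 2501, 2423 and 3249 in the shlacZ libraries, 11566 and 12213 under sh4, and 4557 and 6549 under sh8, and it was called higher with sh4 at 2.14 (adjusted p = 9.3e-05) and with sh8 at 1.02 (adjusted p = 0.0163). The pair shares 246 bases of exon. The sh4 call of CHL1-AS2 was lost when either sh4 library was left out. With a control mean under 30, CHL1-AS2 had to be higher in the knockdown libraries to be a member.

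NR2F1-AS1 was at 157, 113 and 75.7 in the shlacZ libraries, 297 and 328 under sh4, and 214 and 144 under sh8, with 1.49 (SE 0.30, adjusted p = 0.00638) for sh4. Its partner NR2F1, an orphan nuclear receptor, had a log2 fold change of 0.91 (adjusted p = 0.00644), which passed the adjusted p but not the fold. The call of NR2F1-AS1 was lost without the second sh4 library. ST7-AS1 was at 25.8, 17.8 and 9.57 in the shlacZ libraries, 53.1 and 48.5 under sh4, and 29.00 and 36.4 under sh8, with 1.57 (SE 0.42, adjusted p = 0.0242) for sh4, while its partner ST7 had a log2 fold change of 0.10 (adjusted p = 0.599). The call of ST7-AS1 was lost without the second shlacZ library, the third or either sh4 library. ST7-AS1, unlike NR2F1-AS1, passed the minimum for members only through the knockdown libraries.

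The remaining higher calls with sh4 had log2 fold changes of 1.03 (BAZ2B-AS1) to 1.46 (PPM1F-AS1). BAZ2B-AS1 was the least stable of the sh4 calls and was kept in 5 of 17 alternatives. Its call was lost whichever of the 7 libraries was left out, and without the first shlacZ library its log2 fold change was 0.97 (adjusted p = 0.0464).

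The hairpins were then compared directly, since both are directed against the same transcript. Between sh4 and sh8, 8 antisense RNAs were called (3.25%), 1 higher and 7 lower under sh4, beside 3.19% of all genes (1.93% higher and 1.26% lower). By adjusted p alone, 10 members passed (4.07%, against 7% of all genes). LURAP1L-AS1, VPS9D1-AS1, LHFPL3-AS1 and PYDC2-AS1, described above, had log2 differences of -2.11, -1.48, -1.16 and -1.04. Without the first shlacZ library 13 members were called between the hairpins, without the second sh8 library 4, and without the second sh4 or the first sh8 library 3.

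MCM3AP-AS1, GAS6-AS1 and SUGCT-AS1 had log2 fold changes below 0 with sh4 and above 0 with sh8. MCM3AP-AS1, which faces the gene of the mRNA export factor MCM3AP, was at 285, 189.6 and 236 in the shlacZ libraries, 151 and 148 under sh4, and 376 and 386 under sh8. With sh4 it passed the adjusted p but not the fold, at -0.64 (SE 0.19, adjusted p = 0.0398), and with sh8 it did not pass, at 0.70 (SE 0.19, adjusted p = 0.0876). Without the first shlacZ library it was -0.50 (adjusted p = 0.0524) with sh4 and 0.85 (adjusted p = 0.0178) with sh8. The log2 difference between the hairpins was -1.34 (SE 0.21, adjusted p = 0.00631). MCM3AP had log2 fold changes of -0.20 with sh4 and -0.18 with sh8, with adjusted p of 0.262 and 0.461. SUGCT-AS1 was at 390.1, 335 and 412 in the shlacZ libraries, 254 and 296 under sh4, and 559 and 637 under sh8, a log2 difference of -1.12 (SE 0.17, adjusted p = 0.00612). GAS6-AS1 was at 507, 376 and 318 in the shlacZ libraries, 279 and 187 under sh4, and 739 and 397 under sh8, a difference of -1.24 (SE 0.32, adjusted p = 0.0466), with sh8 libraries that were far apart and overlapped the control. Against the control, SUGCT-AS1 passed with neither hairpin, at -0.46 (adjusted p = 0.0634) with sh4 and 0.66 (adjusted p = 0.0591) with sh8. Nor did GAS6-AS1 pass, at -0.78 (adjusted p = 0.0825) with sh4 and 0.46 (adjusted p = 0.441) with sh8. Without the first shlacZ library SUGCT-AS1 passed the adjusted p but not the fold with sh8, at 0.68 (adjusted p = 0.0312). The difference of GAS6-AS1 was lost without the second shlacZ library, either sh4 library or the first sh8 library, that of MCM3AP-AS1 without the second sh4 or the first sh8 library, and that of SUGCT-AS1 without the second sh8 library. Those of LHFPL3-AS1 and PYDC2-AS1 were lost without the second sh4 library or either sh8 library.

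BAALC-AS1 was the 1 member higher under sh4 than under sh8, at 67.1, 38.8 and 33.9 in the shlacZ libraries, 124 and 97.8 under sh4, and 43.5 and 32.8 under sh8. Its log2 fold change was 1.29 (SE 0.34, adjusted p = 0.0218) with sh4 and -0.23 (SE 0.34, adjusted p = 0.758) with sh8, and the difference was 1.52 (SE 0.37, adjusted p = 0.0367). Its call with sh4 was lost without the second shlacZ library, the third or either sh4 library, and the difference without any 1 of the sh4 and sh8 libraries. BAALC was not analysed here. BAALC-AS1 shares 138 bases of exon with FZD6, a Frizzled receptor for WNT ligands on the opposite strand. FZD6 was at 305, 278 and 267 in the shlacZ libraries, 454 and 459.7 under sh4, and 130.5 and 137 under sh8, with 0.69 (SE 0.15, adjusted p = 0.0109) for sh4, -1.08 (SE 0.15, adjusted p = 0.00725) for sh8 and 1.77 (SE 0.17, adjusted p = 0.00113) between the hairpins.

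After LHFPL3-AS1, the next antisense RNAs by normalized count, down to PSMA3-AS1 (mean 1751), were not called in any comparison. PYDC2-AS1, called lower with sh4 and described above, came next with a mean of 1750. OIP5-AS1, also known as Cyrano and studied for its pairing with the microRNA miR-7, was at 3361, 2218 and 3675 in the shlacZ libraries, 1685 and 1740 under sh4, and 2838 and 3576 under sh8. With sh4 it passed the adjusted p but not the fold, at -0.82 (SE 0.20, adjusted p = 0.0172), and with sh8 it was at 0.08 (SE 0.20, adjusted p = 0.873). Both sh4 libraries were below all others. FGD5-AS1 ranged from 1968 to 2601 over the 7 libraries, NUTM2A-AS1 from 1869 to 2678, NUTM2B-AS1 from 1546 to 2404 and PSMA3-AS1 from 1369 to 2433. Their log2 fold changes for both hairpins were -0.17 (SE 0.12), 0.17 (SE 0.13), 0.00 (SE 0.16) and 0.21 (SE 0.18), with adjusted p from 0.417 to 0.991.

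A list of 32 antisense and related transcripts that are often studied in cancer was also read out, of which 25 were in the table and 16 were members. In the comparison of both hairpins with the control, 0 of the 16 were called by limma or by limma-voom, 3 had an unadjusted p under 0.05, and 1 passed the adjusted p. Over all genes tested, 1.99% were called and 4.61% passed the adjusted p. With sh4, 2 were called higher, among them ST7-AS1, and 0 lower, by limma-voom too, with 4 lower at an unadjusted p under 0.05, and 5 passed the adjusted p, among them OIP5-AS1, MCM3AP-AS1 and EPB41L4A-AS1, where 8.16% of all genes were called and 22.5% passed the adjusted p. EPB41L4A-AS1 had a log2 fold change of -0.81 (SE 0.18, adjusted p = 0.0116) with sh4. The median log2 fold change of the 16 was -0.10 with sh4 and 0.08 with sh8.

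Over all 246 members the log2 fold change for both hairpins ran from -3.40 to 1.91 with a median of 0.12, against -0.01 over all genes tested, and 64.6% of members were above 0, against 49.4% of all genes. The medians were 0.12 with sh4 and 0.11 with sh8. Members were chosen by a mean that includes the 4 knockdown libraries, and 19 of them had a control mean under 30, so these values are a description that the choice can raise. With a minimum mean of 100, the medians were 0.07 for both hairpins, 0.04 with sh4 and 0.08 with sh8. Without the first shlacZ library they were 0.25, 0.23 and 0.21, and after quantile normalization that for both hairpins was 0.03. The median standard error of a member was 0.27, against 0.19 over all genes.

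Each antisense RNA was next set beside the gene named before -AS. In the annotation, exons of both overlapped on opposite strands in 196 pairs, gene bodies alone in 32, and 14 were divergent, with starts within 2000 bases. FRMD3-AS1 and FOXD2-AS1 were neither, PYDC2-AS1 was on the same strand, and HOXD-AS2 has no single gene of that name. Of the partners, 231 were in the table and 214 pairs could be tested. Per kilobase of exon, the partner was the more abundant in 185 of the 214, and the median ratio of antisense RNA to partner was 0.169. The median level was 21.97 normalized counts per kb for the antisense RNAs and 128.7 for the partners.

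**Figure D3:**
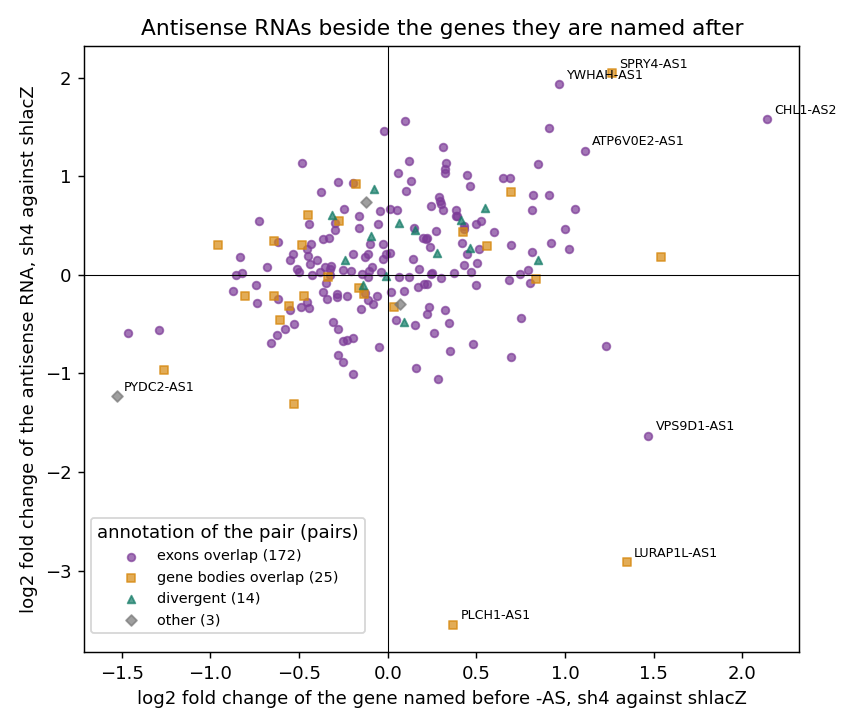
Log2 fold change with sh4 of each antisense RNA (vertical axis) against that of the gene it is named after (horizontal axis), for 214 pairs. Symbols give the annotated arrangement of the pair. PLCH1-AS1, LURAP1L-AS1 and VPS9D1-AS1 lie below 0 beside partners above 0, and SPRY4-AS1, CHL1-AS2 and ATP6V0E2-AS1 lie above 0 with their partners. CHL1-AS2 passed the minimum for members only through the knockdown libraries.

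With sh4, 8 partners were called higher and 4 lower out of 213 distinct genes (5.63%, beside 8.16% of all genes tested), and in 5 pairs both members were called. In SPRY4, CHL1, ATP6V0E2 and PYDC2 the pair moved the same way, and in VPS9D1 the opposite way. CHL1-AS2 passed the minimum only through the knockdown libraries, so its direction was set by the choice of members. ATP6V0E2-AS1 was at 49.5, 45.04 and 69.6 in the shlacZ libraries, 129.9 and 131 under sh4, and 60.6 and 65.5 under sh8, and ATP6V0E2, a subunit of the vacuolar proton pump, was at 358, 445 and 467 in the shlacZ libraries, 823 and 1008 under sh4, and 481 and 509.6 under sh8, with 1.11 (adjusted p = 0.00137) under sh4. For both hairpins together, 4 partners were called higher and 1 lower (2.35%, beside 1.99% of all genes), and SPRY4 was the 1 pair called on both strands. Across the 214 pairs the log2 fold changes had the same sign in 120 for both hairpins, 123 with sh4 and 105 with sh8. Pearson's r across pairs was 0.26, 0.23 and 0.31 and Spearman's rho 0.26, 0.31 and 0.14. With sh4, r was 0.30 in 172 pairs with overlapping exons, -0.007 in 25 with gene bodies alone and 0.03 in 14 divergent pairs. Spearman's rho with sh4 was 0.31, 0.21 and 0.04 in that order. With sh8, r was 0.25, 0.50 and 0.39. Pairs come from the same libraries and are not independent replicates, so these are descriptions. Among the 14 divergent pairs, 0 antisense RNAs were called with sh4 by limma or by limma-voom, and 3 had an unadjusted p under 0.05. At 8.16% of all genes called, a count of 0 in 14 says little about this arrangement.

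**Figure D4:**
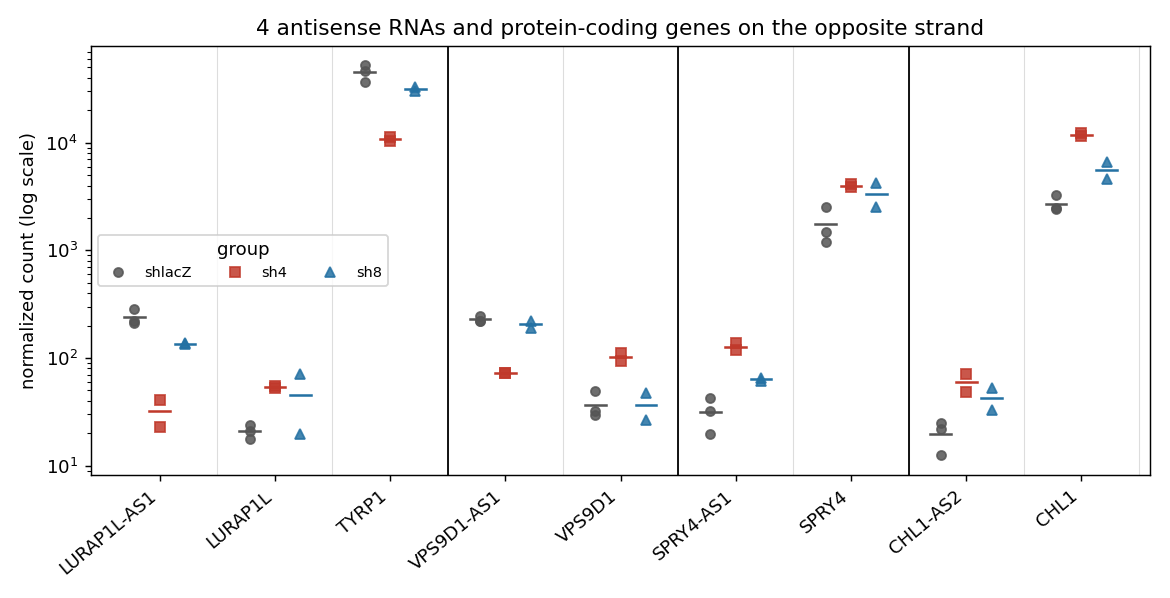
Normalized count (vertical axis, log scale) in each library of 4 antisense RNAs and of protein-coding genes on the opposite strand, with circles for shlacZ (n = 3), squares for sh4 (n = 2), triangles for sh8 (n = 2) and short lines for group means. LURAP1L-AS1 and TYRP1 are both lowest under sh4, VPS9D1-AS1 and VPS9D1 go in opposite directions under sh4, and SPRY4-AS1 and CHL1-AS2, like SPRY4 and CHL1, are higher under sh4 than in the control. The direction of CHL1-AS2 was set by the choice of members, since it passed the minimum only through the knockdown libraries.

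Other classes of non-coding genes are given for context at a minimum mean of 10, whereas the 246 antisense RNAs beside them have a minimum of 30. With sh4, 11.5% of the 148 antisense symbols between means of 10 and 30 were called, 5.66% of the 212 divergent transcripts (-DT), 6.25% of the 32 intronic transcripts (-IT) and 16.1% of the 224 LINC genes, beside 9.35% of the 246 antisense RNAs and 8.16% of all genes. The LINC calls were 13 higher and 23 lower, and those of the antisense RNAs 16 higher and 7 lower. For both hairpins together, 5.36% of LINC genes, 0.472% of -DT genes and 1.22% of the antisense RNAs were called, beside 1.99% of all genes. The differences between classes were not tested.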

How the data were processed

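RNA of 7 libraries of 501Mel cells was sequenced after depletion of ribosomal RNA, with a stranded kit. According to the study's methods, Cutadapt removed adapters, STAR aligned the reads to hg38 and Salmon quantified genes. Versions and the annotation release are not given in the sources used here. The deposited table holds normalized counts, which the authors made by dividing the count of a gene by 1 size factor per library. All values (100%, within 0.01 of a read) were whole multiples of 1 read, which gave sums of 13337317 to 22855232 counted reads per library. Counting limits the lowest members. Such scaling assumes that most genes do not change. The table had 0 columns of other samples.

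The test was limma (version 3.58.1, R 4.3.3) with a variance trend on log2(normalized count + 1), two-sided, for the 15420 genes whose mean reached 10, adjusted by Benjamini-Hochberg over all of them. Fold changes on this scale understate those of low genes. Both hairpins (n = 4) against the control (n = 3) came from a fit with 2 levels, and single hairpins from a fit with 3 groups sharing 1 spread. The fit was tested on simulated data. Negative binomial tests of counts were not run, although whole reads could be recovered and served for limma-voom. Coordinates, gene types and exon lengths came from GENCODE release 44 on hg38, which held 21281 of the 21305 genes and all 246 members, INO80D-AS2 as INO80D-AS1. Promoter sequences came from RefSeq (GRCh38.p14).

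Named were the members called in each comparison (up to 12 for both hairpins and up to 8 for each hairpin by size, and up to 4 higher and 4 lower between hairpins), the 6 with the highest means, those next to the minimum of 30, and their partners. Others were named after their values were seen. The members and lists were chosen with earlier results of these data known. Alternatives covered the pseudocount, the minimum, 2 scalings, the variance trend, limma-voom on recovered reads, other sets of libraries, a replicate block and leaving out each library. Of the marker lists, melanocytic genes were all in the table (7). The markers COL1A2, DCN, LUM, PTPRC, CD3E, EPCAM, KRT5, KRT14, PECAM1 and CDH5 were looked up and not found by symbol. The values of 1 antisense RNA are not reported here, though it is included in the counts.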

Additional observations from a re-analysis of the deposited data

Results flagged for a closer look

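For 8 antisense RNAs the effects of the hairpins differed in the direct test of sh4 against sh8 by limma, and each value is the log2 difference of sh4 minus sh8. It was -2.11 (SE 0.29, adjusted p = 0.0036) for LURAP1L-AS1, -1.48 (SE 0.20, adjusted p = 0.00302) for VPS9D1-AS1, -1.34 (SE 0.21, adjusted p = 0.00631) for MCM3AP-AS1 and -1.24 (SE 0.32, adjusted p = 0.0466) for GAS6-AS1. It was -1.16 (SE 0.21, adjusted p = 0.0113) for LHFPL3-AS1, -1.12 (SE 0.17, adjusted p = 0.00612) for SUGCT-AS1 and -1.04 (SE 0.20, adjusted p = 0.0153) for PYDC2-AS1. BAALC-AS1 had the 1 difference above 0, at 1.52 (SE 0.37, adjusted p = 0.0367). The differences of LURAP1L-AS1 and VPS9D1-AS1 passed in all 17 alternatives, and that of SUGCT-AS1 in 16. Of the 18 named members, 0 had a knockdown library far from the other 3 by Dixon's test. The test pools 2 libraries of each hairpin, so it can hardly pass where the hairpins differ. The count of 0 therefore does not show that no library was outlying.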

How the results depend on the processing

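For both hairpins against the control, the 3 calls became 5 with upper quartile scaling, 10 with the mean of both hairpins in the fit with 3 groups, 1 with a minimum mean of 100, and 1 to 7 when single libraries were left out (7 without the first shlacZ library, 6 without the first sh8 library, and 1 without the second shlacZ library, the third or either sh4 library). The 23 calls with sh4 became 11 with a minimum of 100 and 9 to 36 without single libraries (36 without the first shlacZ library, 14 without the second or the third, 9 without either sh4 library). Of the 36, 21 were among the 23. The 1 call with sh8 became 0 to 6 (6 without the first shlacZ library, 0 without the second sh8 library). The 8 calls of sh4 against sh8 became 13 with quantile normalization, 4 without the variance trend, 13 with only the libraries compared, and 3 to 13 without single libraries (13 without the first shlacZ library, 4 without the second sh8 library, 3 without the second sh4 or the first sh8 library). A hairpin left with 1 library is assumed to vary like the other groups. With a replicate block the calls were 1, 21, 1 and 11 in the order of these comparisons. The deviations of same-numbered libraries correlated between -0.08 and 0.34, and those of other numbers between -0.34 and 0.23. In a group of 2 libraries the deviations mirror each other, so these values cannot settle whether replicate numbers pair the libraries. The labels give the block only a shared number. Signs turned for values near 0 with both hairpins, in MCM3AP-AS1 with quantile normalization (-0.0147) and limma-voom (-0.00158), in NUTM2B-AS1 with the replicate block (-0.141), and without single libraries in MCM3AP-AS1 (-0.198 to 0.261 over the libraries left out), GAS6-AS1 (-0.513 to 0.145) and NUTM2B-AS1 (-0.141 to 0.177). Of the 306 repeats over the 18 named members, 267 kept direction and side of the threshold. All were of both hairpins against the control, where most of these members were not called and could simply stay uncalled. The calls of PLCH1-AS1, SPRY4-AS1 and PDC-AS1 held in 17, 10 and 8 of 17 alternatives. The causes were not tested. Depth limits members near 30, where 1 library can hold as few as 4 reads.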
